A study of Neurospora crassa with 2 samples.

Results

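The amino acid biosynthesis genes of Neurospora crassa were followed in mRNA-seq of the wild type (WT) strain harvested after 12 hr (DD12) or 20 hr (DD20) in constant darkness. They were taken by their symbols, as the genes of the deposited table named arg, his, trp, lys, leu, ilv, iv, met, cys, thr, ser, pro, aro, tyr, phe, hom or cpc with a number, together with am. The rule found 64 of the 10559 genes of the table. No gene named iv, tyr or phe was among them. All 64 had a mean level of at least 1 RPKM (reads scaled by gene model length and by library total), the limit that 7414 genes of the table passed, so every member entered the comparison.

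Both samples were polyA RNA from hyphae of 1 genotype grown in glucose medium, and they differ by the time spent in the dark alone, as far as the labels say. The labels do not state the total age of the cultures at harvest, so time in the dark and culture age cannot be told apart. The wild type of the study carries bd, an allele used to make conidiation bands visible. The table holds 1 column per time point, while the study describes 2 pools of RNA from 3 cultures each and does not say how these relate to the columns. There is therefore no replicate spread here, no p-value is given, and a difference below describes these 2 columns. In RNA from whole hyphae, less RNA per cell and fewer cells that express a gene cannot be told apart.

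Neurospora makes all its amino acids from glucose carbon and inorganic nitrogen and sulfur, and many of these genes were first defined by mutants that need the amino acid in their medium. Carbon skeletons enter from glycolysis, the pentose phosphate pathway and the citric acid cycle, and glutamate and glutamine carry the nitrogen. Starvation for a single amino acid derepresses genes of many pathways at once, a response called cross-pathway control, which is known as general amino acid control in yeast. Its activator in Neurospora is the bZIP protein CPC-1, the counterpart of yeast Gcn4. Sulfur acquisition has its own bZIP activator, CYS-3.

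Levels differed far more between the genes than between the time points. Among the 64 genes, the RPKM at DD12 ran from 7.02 (arg-15) to 1270 (met-8), with a median of 53.9, and at DD20 from 6.71 (arg-13) to 2111 (met-8), with a median of 64.2. These genes were abundant ones, since 61 of the 64 lay in the upper part (percentile of at least 50) of the 7414 genes at DD12 and their median percentile was 87.1. The 5 most abundant members took 45.4% of the summed RPKM of the 64 at DD12 and 53.6% at DD20. The order of the levels was largely kept, with a Spearman's rho of 0.928 over the 64 genes and 0.963 over the 7414, as a description across genes of the same 2 columns.

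The difference between the time points is expressed below as a log2 ratio, DD20 over DD12, with 1 RPKM added to both values, so that positive ratios are higher at DD20. The median log2 ratio of the members was 0.20, with quartiles of -0.052 and 0.46. Over the 7414 genes it was 0.15, and changes near that value are changes of the table as a whole. Above 0 lay 45 of the 64 members (70.3%), where the table had 66.2%, and 37 of the 64 lay above the median of the table. The members as a group were therefore close to the background in their typical change.

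The members also spread about as widely as the table, whose quartiles were -0.11 and 0.36. A ratio of 1.5-fold or more, a log2 ratio of 0.58, was reached by 13 members higher at DD20 (20.3%, where all genes had 8.40%) and by 6 higher at DD12 (9.38%, where all genes had 6.66%). A ratio of 2-fold was reached by 2 members at DD20 (3.12%, background 0.742%) and by 2 at DD12 (3.12%, background 2.33%). In the more abundant genes, those with a mean RPKM of at least 10, the background at 1.5-fold was 11.02% at DD20 and 7.003% at DD12, with 62 members and the same counts of 13 and 6. The split depended on scaling. When the columns were rescaled over the genes outside the 10 most abundant, which moved the median of the table from 0.15 to -0.028, 7 members passed 1.5-fold in each direction, against a background of 3.06% at DD20 and 10.6% at DD12. With the median of the table set to 0, the members' counts were 9 and 6 and the background was 3.68% and 9.85%.

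The 13 members higher at DD20 by 1.5-fold were am, leu-2, aro-6, lys-6, arg-3, hom-1, ilv-2, cpc-2, cys-18, met-8, aro-1, lys-3 and ilv-6. The 6 members higher at DD12 were cpc-3, his-6, thr-5, trp-3, arg-5 and trp-2. In all 9 settings of filter, pseudocount, scaling and gene length that were run, some members stayed past 1.5-fold. Higher at DD20 these were am, leu-2, aro-6, lys-6, arg-3, hom-1 and ilv-2. All 6 genes higher at DD12 also stayed past it. Centring and rescaling the columns lowered every member's ratio, so they could remove genes from the DD20 side only. The sides therefore cannot be compared in this. Just inside the limit lay ilv-6 (log2 ratio 0.62) and lys-3 (0.62), and just outside it cys-16 (0.58, which is 1.498-fold) and cys-9 (0.53).

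**Figure D1:**
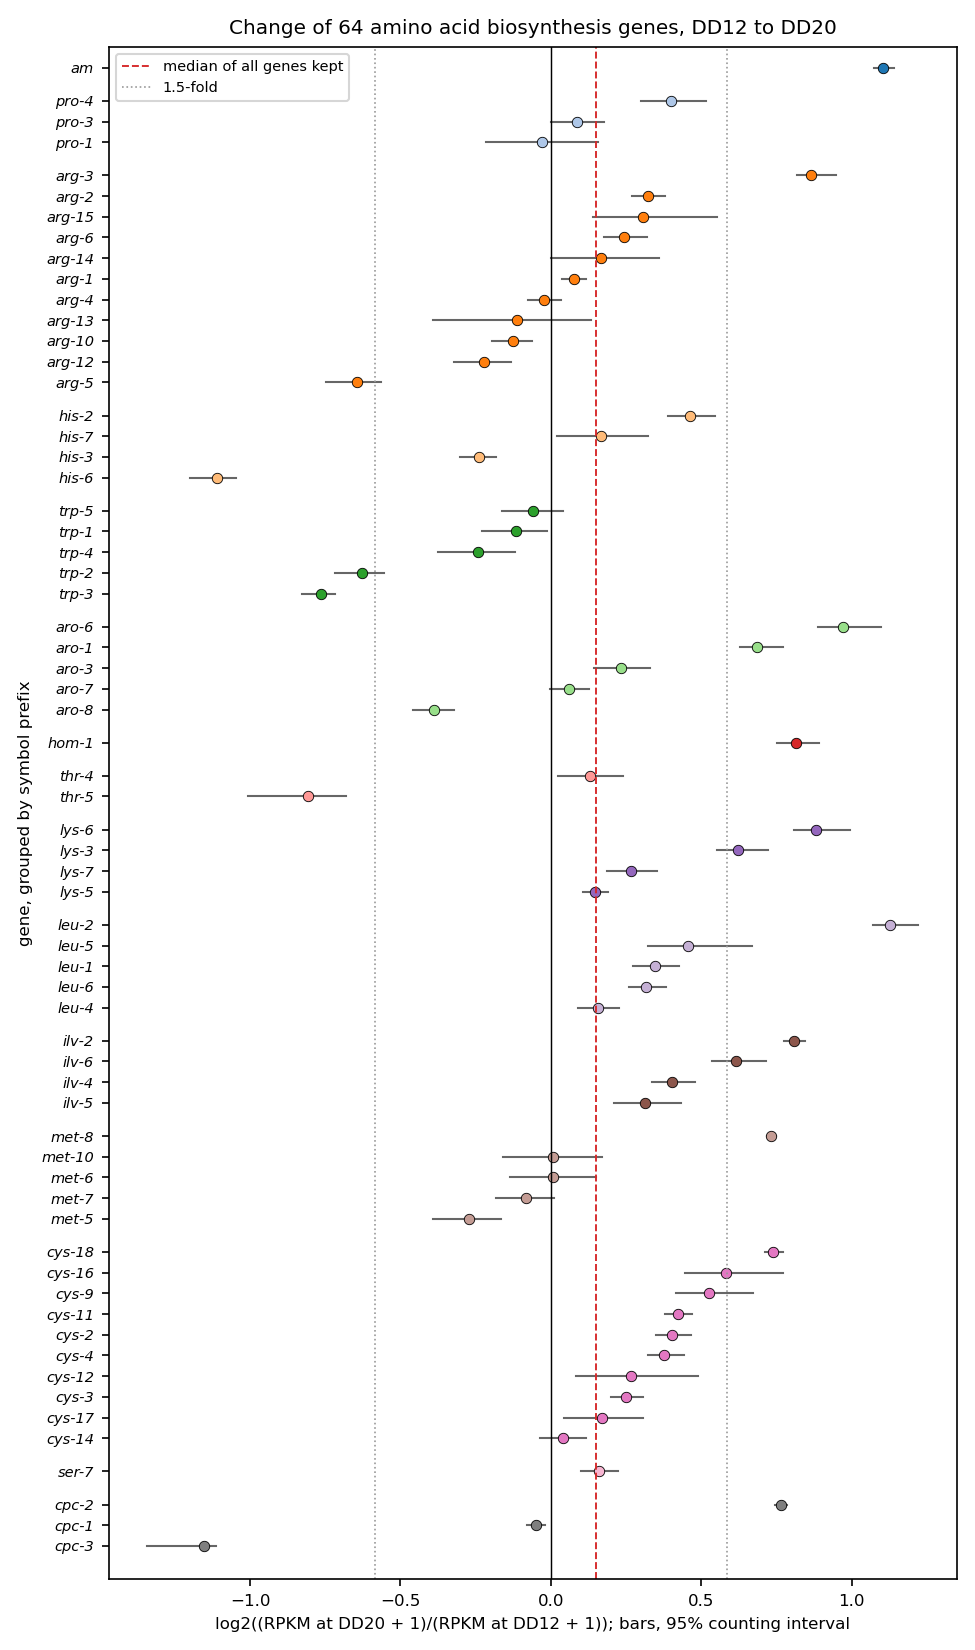
Log2 ratio of each of the 64 genes (points, grouped by symbol prefix), with 95% counting intervals from recovered reads (bars, computed without the added 1). Solid line, equal RPKM. Dashed line, the median of the 7414 genes (0.15). Dotted lines, 1.5-fold. All 5 trp genes lie left of 0, and all leu, ilv, lys and cys genes lie right of it, of which leu-4, lys-5, cys-14 and cys-17 crossed 0 under another scaling.

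The depth behind these values was high. The RPKM values go in steps of 1 read, from which the library totals (DD12, 30712952 reads, and DD20, 29960356 reads) and the reads of each gene could be recovered. The members had between 517 and 137838 reads at DD12 (median 4841) and between 461 and 223464 at DD20 (median 5439), taking the longest fitting length for the 15 members with several. The 95% counting interval of a log2 ratio (exact Clopper-Pearson, on read pairs and without the added 1) had a median half-width of 0.079 over the members and reached 0.26 for the least covered. It covers counting error only and leaves out differences between RNA pools. For a gene with several fitting lengths it is the narrowest that fits, since the longest length gives the most reads. At this depth the interval lay above 0 for 41 of 64 members and below 0 for 14, where 44.5% and 18.4% of the 7374 genes with recovered reads did so. This background was not matched for level, and intervals are narrower for genes with more reads. Most ratios in the table thus differ from 0 by more than read counting, and an interval without 0 says nothing about another culture.

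**Figure D2:**
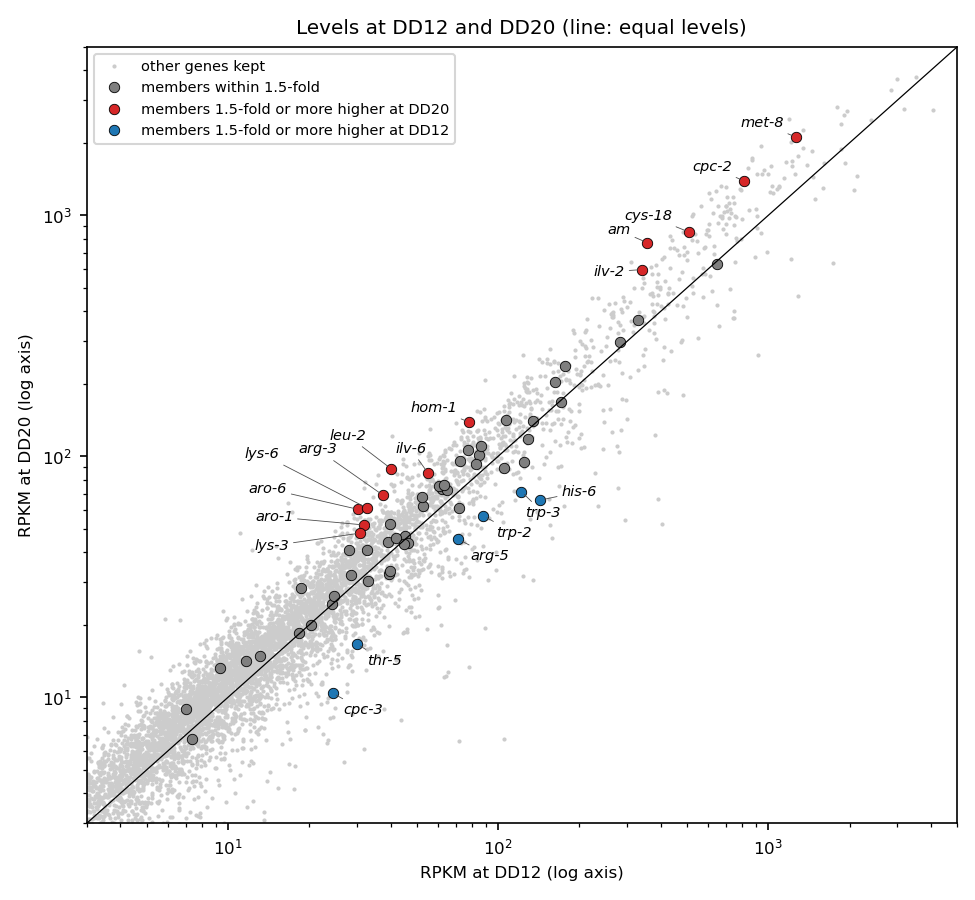
RPKM at DD20 against RPKM at DD12 for the 64 genes (large points) and for the 6158 of 7350 other genes kept that fall within the axes, which run from 3 to 5000 RPKM. Both axes are logarithmic, and the line marks equal levels. The genes 1.5-fold or more higher at DD20 (red) include 5 of the most abundant members (met-8, cpc-2, cys-18, am and ilv-2), while those higher at DD12 (blue) lie between 24.4 and 143 RPKM at DD12.

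The 3 cpc genes of cross-pathway control act on many of the other members. The activator gene cpc-1 was among the most abundant members, at 648 RPKM at DD12 and 626 at DD20. Its level was nearly equal at the time points, with a log2 ratio of -0.050 and a counting interval from -0.081 to -0.020. The gene cpc-3 encodes the eIF2 alpha kinase that senses uncharged tRNA, the counterpart of yeast Gcn2. It had 24.4 RPKM at DD12, from 4228 reads, and 10.4 at DD20, from 1762 reads. At a log2 ratio of -1.15 (interval -1.34 to -1.11) it was 2.22-fold higher at DD12, the lowest ratio among the 64 genes.

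The third gene of the set, cpc-2, encodes a WD-repeat protein of the RACK1 kind that sits on the ribosome. Its RPKM was 817 at DD12 and 1387 at DD20, a log2 ratio of 0.76 (interval 0.74 to 0.78). The 3 cpc genes thus took 3 courses in the RPKM as deposited: cpc-1 near equal, cpc-3 higher at DD12 and cpc-2 higher at DD20. With the median of the table set to 0, the log2 ratio of cpc-1 was -0.20. The RPKM of cpc-1 was 26.6 times that of cpc-3 at DD12 and 60.1 times at DD20. Since cpc-1 is also controlled at translation through upstream reading frames in its mRNA, its RPKM does not measure the activator protein.

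Nitrogen enters through am, the NADP-dependent glutamate dehydrogenase that makes glutamate from ammonium. It had 357 RPKM at DD12, from 23131 reads, and 770 at DD20, from 48597 reads. The log2 ratio of 1.10 (interval 1.07 to 1.14), a 2.15-fold difference, was the second highest of the members. The NAD-dependent enzyme of glutamate breakdown, gdh-1, is no member and had 11.7 RPKM at DD12 and 12.0 at DD20, so the anabolic and catabolic dehydrogenase genes were not shifted alike.

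Proline and arginine are both built on glutamate. The proline genes showed small differences, with log2 ratios of 0.40 for pro-4 (glutamate kinase), 0.086 for pro-3 (the next reductive step) and -0.029 for pro-1 (pyrroline-5-carboxylate reductase). The interval of pro-1, from -0.22 to 0.16, holds 0. The gene of the first enzyme of the route thus had the highest of the 3 ratios.

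The 11 arginine genes had a median log2 ratio of 0.076, under that of the table. Of them, 6 were above 0 and 5 below, where 66.2% of the table was above 0. Above the median of the table lay 5 of the 11. They fell into no common direction. In the acetylated part of the route in the mitochondrion, arg-14 (acetylglutamate synthase) had 13.1 RPKM at DD12 and 14.9 at DD20. The gene arg-6, whose product is processed into the next pair of enzymes, had 52.6 and 62.4 RPKM. Next in the route, arg-5 (acetylornithine aminotransferase) went the other way, with 71.3 RPKM at DD12 from 5154 reads and 45.3 at DD20 from 3193 reads. Its log2 ratio of -0.64 (interval -0.75 to -0.56) was the lowest of the arginine genes. The acetyl group is passed back to glutamate by the product of arg-4, whose levels of 171 and 169 RPKM were within counting error of each other (interval -0.077 to 0.033).

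Carbamoyl phosphate for arginine is made by an enzyme of 2 subunits, the small one from arg-2 and the large one from arg-3. The small subunit gene had 163 RPKM at DD12 and 204 at DD20, a log2 ratio of 0.32 (interval 0.27 to 0.38). The large subunit gene had 37.5 RPKM, from 6205 reads, and 69.1, from 11160 reads, a log2 ratio of 0.87 (interval 0.82 to 0.95). Both subunit genes were higher at DD20, arg-3 by more. The RPKM of arg-2 was therefore 4.34 times that of arg-3 at DD12 and 2.95 times at DD20. The intervals of the 2 genes do not overlap. In Neurospora, arg-2 is also controlled at translation by a peptide in its leader that stalls ribosomes when arginine is plentiful, which RPKM does not show.

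The last steps of the route differed little. Ornithine carbamoyltransferase (arg-12) had 71.5 RPKM at DD12 and 61.1 at DD20, argininosuccinate lyase (arg-10) 129 and 118, and argininosuccinate synthase (arg-1) 283 and 298. The log2 ratios were -0.22, -0.13 and 0.076, and the direction of arg-1 turned under both scalings named above. The arginine members with the lowest levels were arg-13, a mitochondrial carrier for basic amino acids, at 7.34 and 6.71 RPKM, and arg-15, at 7.02 and 8.92. In the RefSeq order of assembly NC12, arg-12 and ilv-4 are the only members that are direct neighbours. Their log2 ratios of -0.22 and 0.40 have opposite signs.

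**Figure D3:**
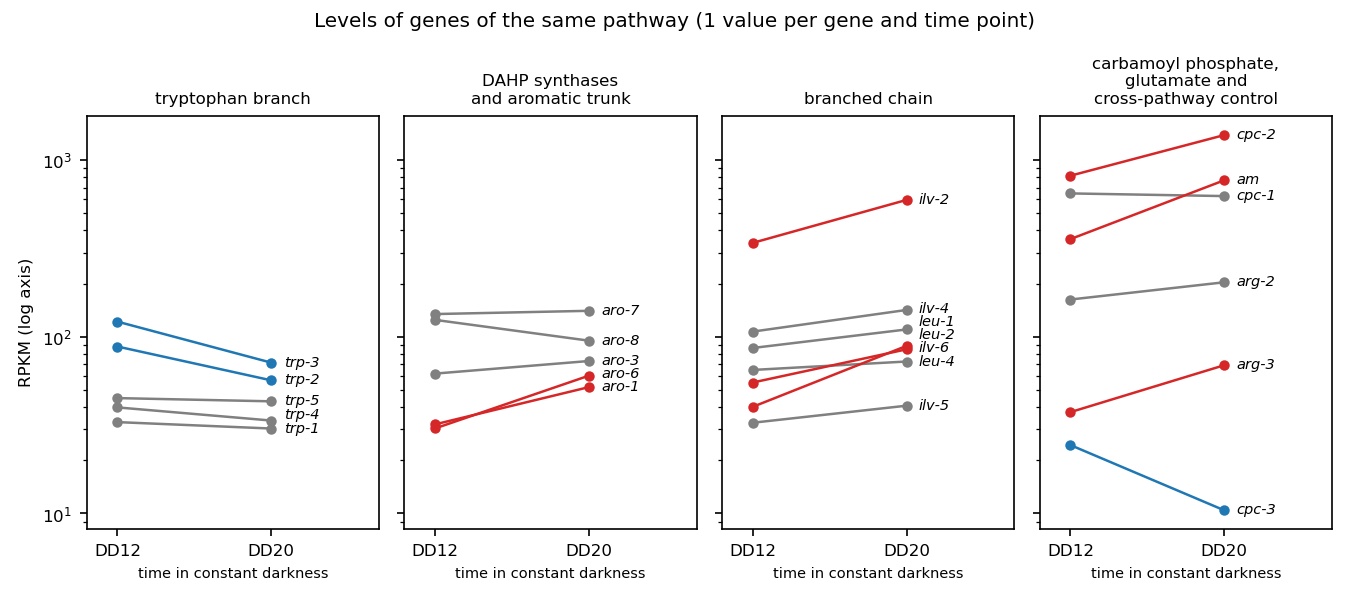
RPKM (logarithmic axis) at DD12 and DD20 of genes of 4 groups, 1 value per gene and time point. Red lines, 1.5-fold or more higher at DD20. Blue lines, 1.5-fold or more higher at DD12. Grey lines, smaller differences. The tryptophan genes slope down and the branched-chain genes up, while the 3 DAHP synthase genes aro-6, aro-7 and aro-8 part ways.

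Aromatic amino acids begin with DAHP synthase, which joins phosphoenolpyruvate and erythrose 4-phosphate. Neurospora has 3 isozymes, each inhibited by 1 end product: tyrosine for aro-6, phenylalanine for aro-7 and tryptophan for aro-8. The tyrosine-sensitive gene aro-6 had 30.3 RPKM at DD12, from 2250 reads, and 60.3 at DD20, from 4367 reads, a log2 ratio of 0.97 (interval 0.89 to 1.10). The phenylalanine-sensitive gene aro-7 had 135 and 140 RPKM, with an interval of -0.0040 to 0.13 that holds 0. The tryptophan-sensitive gene aro-8 had 125 RPKM, from 8321 reads, and 95.1, from 6190 reads, a log2 ratio of -0.39 (interval -0.46 to -0.32).

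The 3 isozyme genes thus differed in direction, while their summed RPKM was 290 at DD12 and 296 at DD20. Within that sum, aro-6 made up 10.5% at DD12 and 20.4% at DD20, aro-7 46.5% and 47.5%, and aro-8 43.1% and 32.2%. These shares are free of the library scaling, which multiplies every gene of a column by the same factor.

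Downstream of DAHP, aro-1 encodes the arom protein, which carries out the next 5 steps. It had 31.96 RPKM at DD12 and 51.9 at DD20, a log2 ratio of 0.68. Chorismate synthase (aro-3) had 61.9 and 73.0 RPKM and a log2 ratio of 0.23. Of the 5 aro genes, aro-1 and aro-6 passed 1.5-fold at DD20, as 8.40% of the table did. While aro-6 stayed past it in all 9 settings, aro-1 did not, and its log2 ratio was 0.53 with the median of the table set to 0. The log2 ratio of aro-3 was near the 0.15 of the table.

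The tryptophan branch, which leaves chorismate, went the other way. All 5 trp genes had log2 ratios below 0, with a median of -0.24, in contrast to 66.2% of the table above 0. The 5 stayed below 0 in all 9 settings, but of these only the length trend could have turned a sign. Centring and rescaling lowered every member's ratio. Tryptophan synthetase (trp-3), the last step, had 122 RPKM at DD12, from 14977 reads, and 71.4 at DD20, from 8556 reads, a log2 ratio of -0.76 (interval -0.83 to -0.72). The anthranilate synthase component of the first step, trp-2, had 88.1 RPKM, from 6567 reads, and 56.7, from 4122 reads, a log2 ratio of -0.63 (interval -0.72 to -0.56). Of the 5 trp genes, trp-3 and trp-2 thus had the lowest ratios. Both were past 1.5-fold toward DD12, as 6.66% of the table was.

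The other trp genes differed less. The anthranilate phosphoribosyltransferase gene trp-4 had 39.9 RPKM at DD12 and 33.6 at DD20, a log2 ratio of -0.24 (interval -0.38 to -0.12). The gene trp-1, whose product has 3 activities and forms the anthranilate synthase complex with that of trp-2, had 32.9 and 30.3 RPKM, a log2 ratio of -0.12. As a result the RPKM of trp-2 was 2.68 times that of trp-1 at DD12 and 1.87 times at DD20. The member trp-5 carries the name of the pathway but encodes tryptophanyl-tRNA synthetase. At 45.0 and 43.1 RPKM its interval, from -0.16 to 0.040, holds 0. The summed RPKM of trp-1 to trp-4 was 283 at DD12 and 192 at DD20, a ratio of 0.679. The isozyme gene aro-8, whose product tryptophan inhibits, was the 1 aro gene below 0, although the sign of aro-7 turned under both scalings named above.

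The 4 histidine genes were split. The gene his-6 had 143 RPKM at DD12, from 8917 reads, and 65.9 at DD20, from 3995 reads. With a log2 ratio of -1.11 (interval -1.20 to -1.05), it was 2.16-fold higher at DD12. The gene his-2, ATP phosphoribosyltransferase of the first step, had 77.1 RPKM and 106.6, a log2 ratio of 0.46. The trifunctional his-3, well known as a target locus for transformation, had 105 and 89.1 RPKM, a log2 ratio of -0.24, and his-7 had 28.7 and 32.3 RPKM. The gene of the first enzyme, his-2, and his-6 were thus shifted in opposite directions.

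The branched-chain genes shared a direction. All 9 leu and ilv genes had log2 ratios above 0, where 66.2% of the table did so. The ratios ran from 0.16 (leu-4), near the median of the table (0.15), to 1.13 (leu-2), with a median of 0.40. Without leu-5 and leu-6, which encode the mitochondrial and the cytosolic leucyl-tRNA synthetase, the 7 others also had a median of 0.40. Their summed RPKM was 727 at DD12 and 1135 at DD20. The 1 sign among them that turned in any of the settings was that of leu-4, in the rescaling over the less abundant genes.

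Isopropylmalate isomerase (leu-2) had the highest ratio of all 64 members. Its RPKM was 40.2 at DD12, from 4227 reads, and 88.9 at DD20, from 9129 reads, a log2 ratio of 1.13 (interval 1.07 to 1.22) or 2.18-fold. The genes of the enzymes on either side of it differed less. Isopropylmalate synthase (leu-4), which leucine inhibits, had 64.9 and 72.5 RPKM, and isopropylmalate dehydrogenase (leu-1) had 86.5 and 110 RPKM. The order of the 3 levels therefore changed, leu-2 being the lowest at DD12 and between leu-4 and leu-1 at DD20. The tRNA synthetase genes leu-5 and leu-6 had log2 ratios of 0.45 and 0.32.

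Among the ilv genes, which serve isoleucine and valine, ilv-2 encodes ketol-acid reductoisomerase. It was the most abundant of the set, at 340 RPKM at DD12, from 20643 reads, and 596 at DD20, from 35264 reads. The log2 ratio was 0.81 (interval 0.77 to 0.84). The other ilv genes had log2 ratios of 0.62 (ilv-6), 0.40 (ilv-4) and 0.31 (ilv-5), and all 4 stayed above 0 in each of the settings run.

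The hom and thr genes, grouped by symbol, were mixed. Homoserine dehydrogenase (hom-1), which makes the precursor shared by threonine and methionine, had 78.4 RPKM at DD12, from 5143 reads, and 138.6 at DD20, from 8869 reads. Its log2 ratio was 0.81 (interval 0.75 to 0.89). The threonine members did not share this, as thr-4 had 41.9 and 45.9 RPKM and thr-5 29.9 and 16.7. The log2 ratio of thr-5 was -0.81 (interval -1.01 to -0.68), past 1.5-fold toward DD12.

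Lysine in fungi is made through aminoadipate and not through the aspartate route of plants and bacteria. The 4 lys genes all had log2 ratios above 0, where 66.2% of the table did so, with a median of 0.44, although the sign of lys-5 turned under both scalings named above. The highest was that of lys-6, with 32.7 RPKM at DD12, from 2872 reads, and 61.1 at DD20, from 5229 reads, a log2 ratio of 0.88 (interval 0.81 to 0.99). Aminoadipate reductase (lys-3) had 30.9 and 48.1 RPKM, a log2 ratio of 0.62, and lys-7 had 63.0 and 75.9 RPKM. Homocitrate synthase (lys-5), the first step and the most abundant of the 4, had 331 and 367 RPKM, and its log2 ratio was 0.15, as was the median of the table. The less abundant lysine genes thus had the larger differences.

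Methionine genes were led by met-8, the cobalamin-independent methionine synthase and the most abundant member at both time points. It had 1270 RPKM at DD12 and 2111 at DD20, a log2 ratio of 0.73 (interval 0.72 to 0.75). The 4 other met genes did not share the difference. For met-5 (homoserine acetyltransferase), the RPKM was 39.4 at DD12 and 32.4 at DD20, a log2 ratio of -0.27 (interval -0.39 to -0.17). The log2 ratios of met-7 (cystathionine gamma-synthase, -0.084), met-6 (folylpolyglutamate synthetase, 0.0057) and met-10 (0.0057) had counting intervals that hold 0. The median of the 5 genes was 0.0057, so the summed RPKM of the set (1398 and 2230) was set by met-8.

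The cysteine and sulfur genes all lay above 0, 10 of 10, where 66.2% of the table did so, with a median log2 ratio of 0.39, and 9 of the 10 were above the median of the table (under other scalings the signs of cys-14 and cys-17 turned). The most abundant, cys-18, had 510 RPKM at DD12, from 31192 reads, and 853 at DD20, from 50856 reads, a log2 ratio of 0.74 (interval 0.71 to 0.77). Sulfate assimilation is started by ATP sulfurylase (cys-11), at 176 RPKM at DD12, from 13950 reads, and 237 at DD20, from 18274 reads, a log2 ratio of 0.42. Cystathionine gamma-lyase (cys-16) had 18.7 and 28.5 RPKM and thioredoxin reductase (cys-9) 28.1 and 40.9. These differences were moderate, and 1 of the 10 passed 1.5-fold, where 8.40% of the table did so.

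The sulfur regulator gene cys-3 had 85.3 RPKM at DD12 and 101.6 at DD20, a log2 ratio of 0.25. Its classical target, the sulfate permease gene cys-14, had 45.4 and 46.7 RPKM and an interval, from -0.035 to 0.12, that holds 0. The other cys genes, cys-2, cys-4, cys-12 and cys-17, had log2 ratios from 0.17 to 0.40. The 1 serine member, ser-7, had 82.8 and 92.6 RPKM and a log2 ratio of 0.16.

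Genes of amino acid uptake, use and charging that carry other names were set beside the members, from lists chosen with some of their values known. The lists were not rerun under the other scalings, so their counts hold for the RPKM as deposited. Of the 3 amino acid permease genes, all had log2 ratios above 0 and 2 passed 1.5-fold at DD20, where the table had 66.2% and 8.40%. The general permease gene pmg had 17.2 RPKM at DD12 and 58.9 at DD20, a log2 ratio of 1.72 (interval 1.65 to 1.91). The neutral permease gene mtr had 109 and 171 RPKM, a log2 ratio of 0.65, and the basic permease gene pmb 38.8 and 58.4, a log2 ratio of 0.58. The median of the 3 was 0.65.

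Ornithine leaves the arginine route toward proline and the polyamines. The 4 genes matched of the 5 listed there all had log2 ratios above the median of the table, with a median of 0.62. Ornithine transaminase (ota) had 36.2 RPKM at DD12 and 54.1 at DD20, ornithine decarboxylase (spe-1) 86.0 and 118, and spermidine synthase (spe-3) 151 and 244. The highest ratio was that of S-adenosylmethionine decarboxylase (spe-2), 24.8 and 49.2 RPKM, at 0.96 (interval 0.86 to 1.11). Of the 4 genes, spe-2 and spe-3 passed 1.5-fold, as 8.40% of the table did, while ota (log2 ratio 0.56) and spe-1 (0.45) did not.

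The 4 glutamate and glutamine genes matched were split. Of the glutamine synthetase pair, gln-1 had 129.5 RPKM at DD12 and 202 at DD20, a log2 ratio of 0.64, and gln-2 had 282 and 247, a log2 ratio of -0.19 (interval -0.24 to -0.14). Glutamate synthase, en(am)-2, had 32.5 and 42.9 RPKM, a log2 ratio of 0.39. The 2 glutamine synthetase genes were therefore closer in level at DD20.

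Of the sulfur regulators, scon-2 (the F-box protein that restrains CYS-3) had 5.74 and 6.01 RPKM and scon-3 (its Skp1 partner) 128 and 113. The arylsulfatase gene ars-1, a gene of sulfur starvation, was under 1 RPKM at both time points (0.848 and 0.348), so no ratio was read. Among the 5 aminoacyl-tRNA synthetase genes the log2 ratios ran from -0.16 (cyt-20, valyl) over trp-5, leu-6 and leu-5 to 0.70 (cyt-18, mitochondrial tyrosyl), with a median of 0.32. The synthetase genes were thus not shifted in common.

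**Figure D4:**
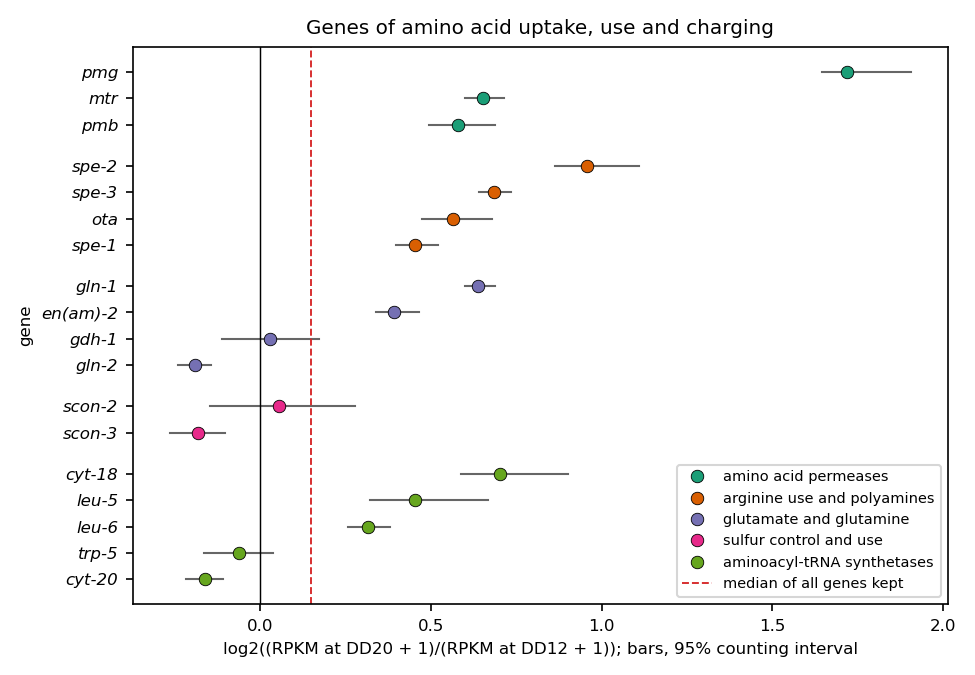
Log2 ratio of genes of amino acid uptake, use and charging (points, coloured by list), with 95% counting intervals (bars, computed without the added 1). Dashed line, the median of the 7414 genes (0.15). The highest ratio is that of pmg, at 1.72, and all 3 permease genes lie at 0.58 or above.

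Gene length and level moved weakly with the ratios. Across the 64 members, Spearman's rho with the log2 ratio was 0.11 for length and 0.20 for mean RPKM. Over the table it was 0.13 for length (5846 genes with a unique length) and 0.14 for mean RPKM (7414 genes). With the length trend removed, 12 members were past 1.5-fold at DD20 (18.75%, where all genes had 9.28%). At DD12 there were 6 (9.38%, where all genes had 6.20%). The part of RNA quality in the differences was not tested.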

How the data were processed

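Levels of mRNA in WT hyphae (DD12, DD20) came from 1 deposited table, in which the authors give each gene's reads as RPKM. The submitters' processing notes name CASAVA 1.8 and HISAT. The counting method, strand handling, gene models and genome build are not given in the sources used here, so no coordinates are printed. RefSeq (assembly NC12) was used for locus order, synonyms and spans.

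Calculations used pandas 2.3.3 and scipy 1.17.1 under Python 3.11.15, with numpy 2.4.6, and figures used matplotlib 3.10.9. Library totals were taken as the whole numbers that turned most products of RPKM and RefSeq span into whole reads. Gene lengths from 30 nt to the span were accepted if reads at both time points were whole within 0.003 (plus the rounding of the values). The length was unique for 49 members and the longest was used for 15. Among genes of 1 to 10 reads whose length equals the span, the number was even in 65.4% (DD12, 130 genes) and 60.4% (DD20, 144 genes), as when both mates of a pair are counted, so reads were divided by 2 for the intervals.

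Members and lists were chosen with earlier results of these data known. Every member could be named. Given in full were, per pathway, the highest, lowest and most abundant genes, those past 1.5-fold, the cpc genes, am and the genes of the other lists. Of those lists, aga, glt, scon-1 and ars matched no gene, and un-3 is a synonym of cyt-20. The planned count of CPC1 motifs was not made, as promoter sequences were not used here.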

Additional observations from a re-analysis of the deposited data

How the results depend on the processing

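No paired analysis was possible because each time point is a single column, which also left no replicate to omit. Against 2 members at 2-fold in each direction, there was 1 higher at DD12 with a pseudocount of 5, and there were 0 higher at DD20 after centring on the median of the table and 0 after rescaling over the genes outside the 10 most abundant. In that last setting 7 members were 1.5-fold higher at DD20, against 13. The median log2 ratio of the members, 0.20, was 0.053 after centring and 0.0076 after that rescaling. Both settings subtract nearly the same amount from every gene by construction. The other settings run were a pseudocount of 0.1, a mean RPKM of at least 10, no filter, columns rescaled over all genes, the length trend removed (chosen after seeing the data) and, for the median only, regulators and aminoacyl-tRNA synthetases left out. They left these counts within 1.5 times and moved the median by less than 0.079, the median half-width of the counting intervals.

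No member past 1.5-fold changed sign in any setting. The sign turned in at least 1 setting for 14 members (arg-1, arg-14, aro-7, cys-14, cys-17, his-7, leu-4, lys-5, met-6, met-10, pro-1, pro-3, ser-7 and thr-4), while 32 stayed above 0 and 18 below. The pathway medians of arg, met, pro and ser also crossed 0. That of trp ranged from -0.44 to -0.19, that of ilv from 0.31 to 0.54 and that of cys from 0.19 to 0.39. For arg-13, with 517 and 461 reads, and arg-15, with 702 and 870 at its longest fitting length, counting limits the ratio most.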
